A study of Mus musculus with 2 samples.

Results

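The genes described here are 10 genes of MHC class I antigen presentation and its checkpoint in 4T1 cells, a line grown from a mammary carcinoma of a BALB/c mouse: H2-K1, H2-D1, B2m, Tap1, Tap2, Tapbp, Nlrc5, Psmb8, Psmb9 and Cd274, which encodes PD-L1. They were taken by name, and all 10 were found among the 21911 genes of the deposited table. RNA was collected from 4T1 cells cultured for 48 h in the presence of either PBS (PBS cells) or potassium oxalate (oxalate cells), and polyadenylated RNA was sequenced in 2 libraries, 1 per condition. The oxalate dose is 20 mM in the treatment description and 20 microM in the sample labels and the methods of the study, and which of these applied is unknown. The question behind the experiment was which transcripts of the tumor cells respond to oxalate. With 1 library per condition there was no replicate error, no difference could be tested, and no difference has a replicate check. Values are FPKM, fragments scaled to transcript length and library size, so that levels of different genes can be set side by side. The steps between low FPKM values gave an estimated depth of about 56800000 reads for PBS and 36500000 reads for oxalate. Brackets after a level give the exact Poisson 95% interval of the estimated reads, which covers counting error only. Epithelial markers were high in both libraries, with Epcam at 126 FPKM in PBS cells and 125 FPKM in oxalate cells, whereas Krt5 was at 0 and 0.03 FPKM. Of 10 leukocyte markers 8, including Ptprc, were listed at 0 in both libraries, and the list summed to 4.93 FPKM in PBS cells and 5.20 FPKM in oxalate cells. Nearly all of this sum was Csf1r, named after its values were seen, at 4.93 and 5.18 FPKM. The 3 endothelial markers summed to 0.08 and 0.11 FPKM.

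MHC class I molecules display peptides from inside the cell to CD8+ T cells. The proteasome cuts proteins into peptides, the TAP transporter carries them into the endoplasmic reticulum, tapasin holds the empty class I molecule at the transporter, and a heavy chain joined to β2-microglobulin takes the peptide to the cell surface. Interferon gamma raises nearly all of these genes through IRF1 and the transactivator NLRC5, exchanges the catalytic proteasome subunits for inducible ones, and also raises PD-L1, the ligand through which a tumor cell restrains T cells that carry PD-1. BALB/c mice carry the H2-d haplotype and the mouse reference genome the H2-b haplotype of C57BL/6J, so heavy chain reads of 4T1 cells differ from the reference at polymorphic bases. RNA levels are not a measure of surface class I or PD-L1 protein.

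Upstream sequences are shown for the heavy chains, B2m and Cd274, because class I heavy chain and β2-microglobulin promoters are known to share regulatory elements. The bases are those of RefSeq on GRCm38.p6, from C57BL/6J and not from 4T1 cells, and positions count back from the RefSeq start site. Promoters were found for 8 of the 10 genes, and not for Tap2 and Nlrc5. The 250 bases upstream were searched on both strands for GAAANNGAA or GAANNGAAA (IRF motif), GGGNNTTCC (kB motif), TTCNNNGAA (GAS motif), TGACG (half-site of the X2 or CRE element) and CCAAT (Y or CCAAT box). Capitals mark matches, which may overlap other motifs not searched. The 120 bases before the start of H2-K1 (chr17:34000348-34000467, minus strand) held a kB, an IRF, a TGACG and a CCAAT-box match in this order:
H2-K1: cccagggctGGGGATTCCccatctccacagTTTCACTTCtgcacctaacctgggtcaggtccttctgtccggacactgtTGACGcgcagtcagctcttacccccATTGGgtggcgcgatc

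The same kB and IRF matches lay at the same spacing in H2-D1 (chr17:35262923-35262952, plus strand, within a 5′ exon of 1 longer annotated transcript). Over 190 aligned bases, the upstream stretches of H2-K1 and H2-D1 were 91.6% identical. B2m had an IRF match and no match to the letters searched for kB (chr2:122147542-122147571, plus strand), and Cd274 had an IRF match alone (chr19:29367352-29367381, plus strand). Of 27025 promoters of the same length, 12.6% held an IRF match and 4.88% a kB match.
H2-K1: GGGGATTCCccatctccacagTTTCACTTC
H2-D1: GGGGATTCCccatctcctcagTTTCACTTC
B2m: gaacatGAAACTGAAaatgggaaagtccct
Cd274: actgggtggcTTCGGTTTCacagacagcgg

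In H2-K1 (chr17:34000359-34000388, minus strand), H2-D1 (chr17:35262993-35263022, plus strand) and B2m (chr2:122147609-122147638, plus strand) TGACG was followed by ATTGG, the CCAAT box read on the other strand, with 25 bases between their first letters. This arrangement, searched for after the sequences had been seen, was present in 25 of 27025 promoters (0.0925%), and H2-K1, H2-D1 and B2m were 3 of the 25. H2-M3, a heavy chain of non-classical class I, was another. TGACG alone was present in 17.9% of promoters and CCAAT in 34.5%.
H2-K1: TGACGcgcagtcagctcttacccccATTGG
H2-D1: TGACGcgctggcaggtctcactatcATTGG
B2m: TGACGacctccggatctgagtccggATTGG

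The start sites of Tap1 and Psmb9 lie 226 bases apart on opposite strands of chromosome 17, and so the upstream stretches of both hold the same TGACG and CCAAT matches, at another spacing. Tapbp held 2 CCAAT matches and Psmb8 a GAS match, a motif found in 7.18% of promoters. A match in these letters does not show that a factor binds there.

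The levels of the 10 genes spanned over 3 orders of magnitude in both libraries, with B2m at the top and Cd274 at the bottom. B2m was 4785 times the FPKM of Cd274 in PBS cells and 2836 times in oxalate cells. With PBS, H2-D1 and Tapbp followed B2m with intervals that overlapped, and then came H2-K1, Tap2 and Psmb8, each apart from the next. The intervals of Tap1 and Psmb9 overlapped, as did those of Psmb9 and Nlrc5, and Cd274 lay below Nlrc5. With oxalate the order was the same, except that the intervals of H2-D1 and Tapbp no longer overlapped and those of Nlrc5 and Cd274 did. The genes of the class I molecule itself and of tapasin were thus above 20 FPKM, whereas Tap1, Psmb8, Psmb9, Nlrc5 and Cd274 were below 2 FPKM.

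**Figure D1:**
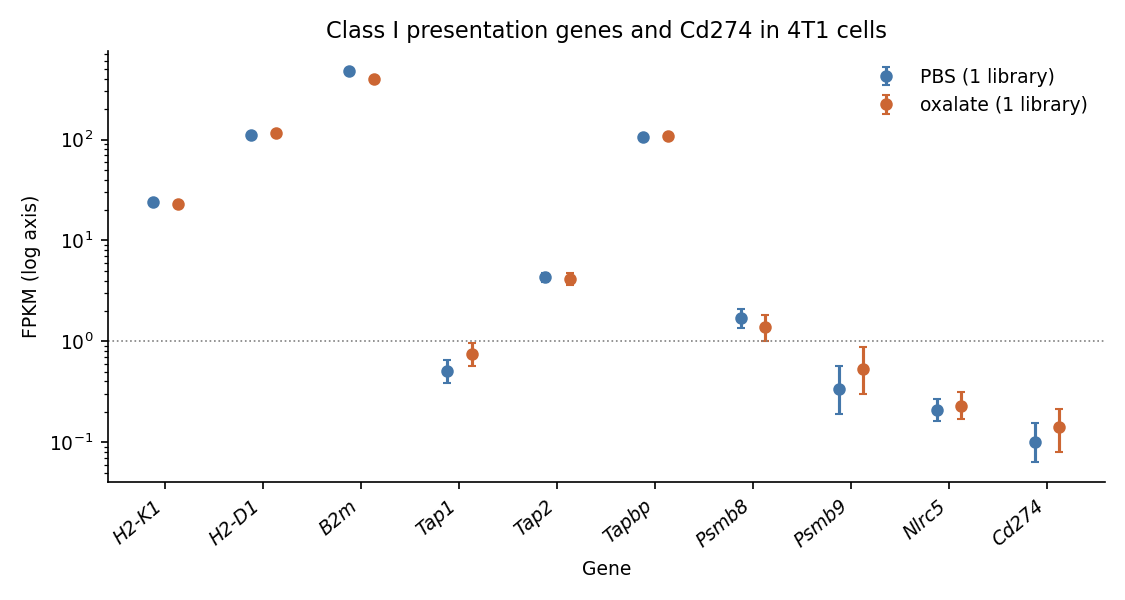
FPKM on a log axis of the 10 genes in the PBS library (blue) and the oxalate library (orange), with exact Poisson 95% intervals of the estimated reads and a dotted line at 1 FPKM. B2m sits at 479 and 397 FPKM, Cd274 at 0.10 and 0.14 FPKM, and the libraries lie close together for each gene.

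B2m (ENSMUSG00000060802, chromosome 2, 122147686 to 122153083, GRCm38), the light chain that every classical class I molecule needs to reach the surface, was at 479 FPKM (472 to 485) in PBS cells and at 397 FPKM (390 to 404) in oxalate cells. It ranked 138 of 21911 genes in PBS cells and 176 in oxalate cells. The oxalate level was the lower one and the counting intervals did not overlap. The log2 fold change, given throughout as log2((oxalate + 1)/(PBS + 1)), was -0.27, and the interval of the log2 ratio of the reads ran from -0.30 to -0.24. The pseudocount of 1 makes this scale understate changes of low genes. Transcripts of low GC content were lower with oxalate in general: B2m, at 41.2% GC, belonged to the lowest of 10 GC bins, whose median log2 fold change was -0.073. With the median of its bin taken away B2m was at -0.20, which is under 1.2-fold, so that the difference passes that size only without this correction. B2m has 1 annotated transcript, and none of its 50-base windows occurs in another gene, although the annotation of Patl2 on the opposite strand runs across it.

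The classical heavy chains, which hold the peptide, differed from each other more than between the libraries. H2-D1 (ENSMUSG00000073411, chromosome 17, 35262730 to 35267499) was at 110 FPKM (107 to 112) in PBS cells and at 117 FPKM (113 to 120) in oxalate cells, a log2 fold change of 0.090. H2-K1 (ENSMUSG00000061232, chromosome 17, 33996017 to 34000347) was at 24.1 FPKM (22.9 to 25.3) in PBS cells and at 23.1 FPKM (21.7 to 24.7) in oxalate cells, a log2 fold change of -0.057. The H2-K1 intervals overlapped, and those of H2-D1 lay apart by a small margin with oxalate the higher. H2-D1 was 4.55 times H2-K1 in PBS cells and 5.05 times in oxalate cells. Their sum was 134 FPKM in PBS cells and 140 FPKM in oxalate cells, and B2m was 3.58 and 2.84 times this sum. These levels are uncertain beyond counting error, since 13.9% of the 50-base windows of H2-D1 and 6.87% of those of H2-K1 occur also in other genes, mostly other heavy chains, and since the reference carries the alleles of another haplotype. H2-L, another heavy chain gene that was sought, was not found in the table. Where any reads of H2-L were counted was not tested. The ratios and the sum carry the same uncertainty.

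The chains of the peptide transporter were expressed unequally. Tap2 (ENSMUSG00000024339, chromosome 17, 34203527 to 34216321) was at 4.31 FPKM (3.87 to 4.80) in PBS cells and 4.16 FPKM (3.62 to 4.75) in oxalate cells. Tap1 (ENSMUSG00000037321, chromosome 17, 34187553 to 34197225) was at 0.51 FPKM (0.39 to 0.65) in PBS cells and 0.75 FPKM (0.57 to 0.97) in oxalate cells. Tap2 thus exceeded Tap1 8.45 times in PBS cells and 5.55 times in oxalate cells, and TAP needs both chains. The Tap1 values stood for an estimated 59 and 56 reads. Its log2 fold change was 0.21, and the interval of the log2 read ratio ran from 0.010 to 1.12, so that its lower end lay close to no difference. Tap1 shares 212 bases with Psmb9 on the opposite strand. Tap2 shares 3148 bases with Gm15821 and 1923 bases with Gm20496, also on the opposite strand. Of the 50-base windows, 12.1% of those of Tap2 and 6.27% of those of Tap1 occur also in other genes. The strand setting of the counting is not given in the sources used here. Whether reads of these neighbors add to the Tap2 level or to its ratio to Tap1 was not tested.

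Tapbp (ENSMUSG00000024308, chromosome 17, 33915899 to 33929292), which encodes tapasin, was at 106 FPKM (104 to 108) in PBS cells and 107 FPKM (104 to 110) in oxalate cells. Its log2 fold change was 0.016, and -0.0085 once the GC trend was removed, and the counting intervals overlapped. It was 24.6 times the level of Tap2 in PBS cells and 25.8 times in oxalate cells. Tapbp overlaps Zbtb22 on the same strand over 3422 bases and has 5 coding transcripts, so part of its reads could belong to its neighbor.

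The inducible proteasome subunits replace constitutive ones in cells exposed to interferon gamma, Psmb8 taking the place of Psmb5, Psmb9 that of Psmb6 and Psmb10 that of Psmb7. In 4T1 cells the constitutive subunits dominated in both libraries. Psmb8 (ENSMUSG00000024338, chromosome 17, 34197721 to 34201454) was at 1.69 FPKM (1.35 to 2.07) in PBS cells and 1.37 FPKM (1.01 to 1.82) in oxalate cells, against 50.4 and 52.2 FPKM for Psmb5. Psmb9 (ENSMUSG00000096727, chromosome 17, 34181987 to 34187764) was at 0.34 FPKM (0.19 to 0.56) in PBS cells and 0.53 FPKM (0.30 to 0.88) in oxalate cells, against 153 and 158 FPKM for Psmb6. These Psmb9 values stood for an estimated 15 reads in each library. Of the 50-base windows, 9.71% of those of Psmb9 occur also in Tap1 and 5.51% of those of Psmb8 in Gm20496. Gm20496 lies on the opposite strand over 2139 bases of Psmb8. Psmb8 made up 3.25% of its pair in PBS cells and 2.56% in oxalate cells, and Psmb9 made up 0.221% and 0.334%. Psmb10 stood apart from both, at 20.7 and 20.4 FPKM against 103 and 97.7 FPKM for Psmb7, which is 16.7% and 17.2% of the pair. The 3 inducible genes together held 6.90% of the FPKM of the 6 catalytic genes in PBS cells and 6.74% in oxalate cells, most of it Psmb10. The log2 fold changes were -0.18 for Psmb8 and 0.19 for Psmb9, and the intervals of the read ratios, -0.84 to 0.23 and -0.49 to 1.77, held 0. A difference was therefore not detectable at this depth.

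**Figure D2:**
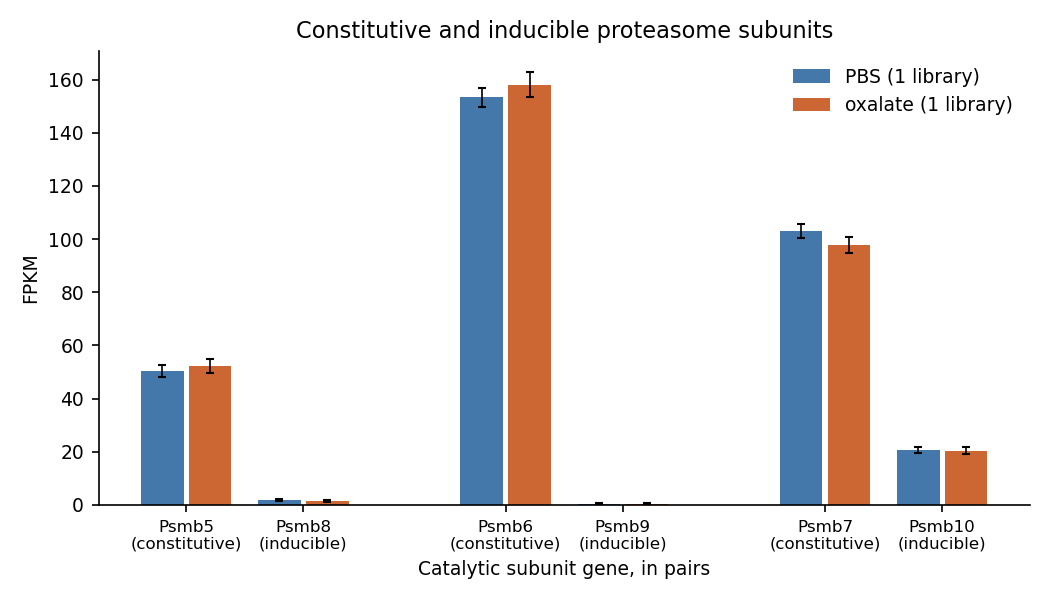
FPKM of the constitutive and inducible catalytic subunits, in pairs, in the PBS (blue) and oxalate (orange) libraries, with exact Poisson 95% intervals of the estimated reads. Psmb8 and Psmb9 barely rise above 0 beside Psmb5 and Psmb6, whereas Psmb10 reaches 20.7 and 20.4 FPKM.

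Nlrc5 (ENSMUSG00000074151, chromosome 8, 94434356 to 94527272), the transactivator of class I genes, was at 0.21 FPKM (0.16 to 0.27) in PBS cells and 0.23 FPKM (0.17 to 0.31) in oxalate cells, an estimated 62 and 44 reads. The log2 fold change was 0.024 and the interval of the log2 read ratio ran from -0.45 to 0.73. H2-K1, H2-D1 and B2m were at 23.1 to 479 FPKM in libraries where Nlrc5 was below 1 FPKM. Whether their levels depend on Nlrc5 was not tested.

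Cd274 (ENSMUSG00000016496, chromosome 19, 29367455 to 29388095) was at 0.10 FPKM (0.063 to 0.16) in PBS cells and 0.14 FPKM (0.081 to 0.22) in oxalate cells, an estimated 21 and 18 reads over its single transcript of 3622 bases. The oxalate value was the higher one, and the intervals overlapped over most of their length. The log2 fold change was 0.052 on the scale with a pseudocount and 0.49 as the plain log2 ratio, whose interval ran from -0.58 to 1.40. PD-L1 mRNA was thus detected at a low level in both libraries, and a difference between them was not detectable at this depth. An antisense gene covers 11055 bases of the locus, and 12.4% of the 50-base windows of Cd274 occur in other genes.

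None of the 10 genes reached a 2-fold difference, which on the scale with a pseudocount is harder to reach for genes below 1 FPKM. Of the 6 that averaged 1 FPKM or more (H2-K1, H2-D1, B2m, Tap2, Tapbp and Psmb8), 2 were higher and 4 lower with oxalate, with a median log2 fold change of -0.049 against 0.0031 for all 10267 genes that passed the same filter. Tap1, Nlrc5, Psmb9 and Cd274 were below this filter, and their values were the higher ones with oxalate; over all 10 genes the median was 0.020. Across the 10267 genes, 0.292% were at least 2-fold higher and 0.36% at least 2-fold lower with oxalate. At 1.2-fold, 0 of the 6 genes were higher, against 4.75% of all genes, and 1 of the 6, B2m, was lower, against 5.19%. With 6 genes these counts cannot be set apart from the shares of all genes.

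**Figure D3:**
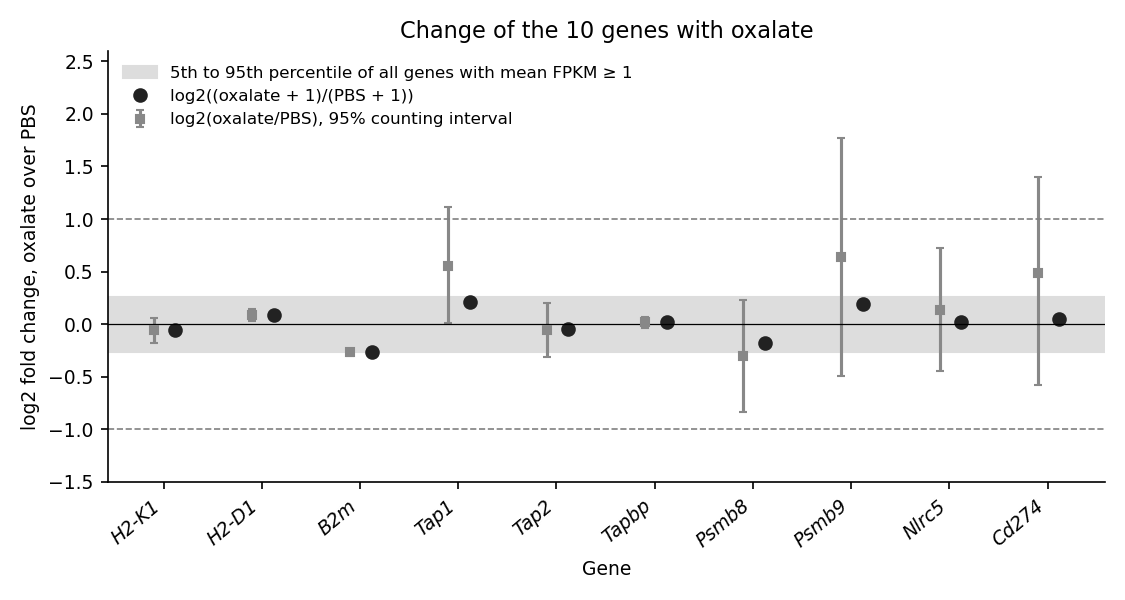
Change with oxalate of the 10 genes, as log2((oxalate + 1)/(PBS + 1)) (black) and as the log2 ratio with its exact 95% counting interval (grey), over a band from the 5th to the 95th percentile of all genes that averaged 1 FPKM or more. All black points lie between -0.27 and 0.21, and the intervals of Psmb9, Cd274 and Tap1, each with few reads, extend beyond the dashed 2-fold line at 1.

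**Figure D4:**
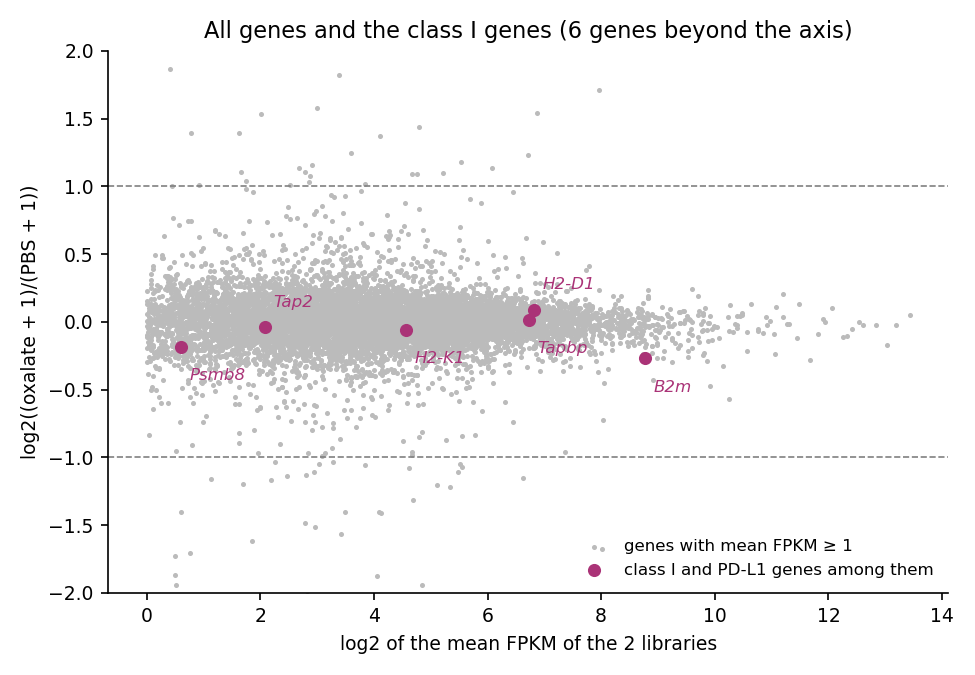
Log2 fold change against log2 mean FPKM of the 10267 genes that averaged 1 FPKM or more (grey), with the 6 class I genes among them in color and dashed lines at 2-fold; 6 genes lie beyond the axis. The 6 class I genes lie within the cloud, with B2m near its lower edge at -0.27.

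The rest of the class I pathway was read from 11 lists of 135 genes, of which 128 were in the table and 85 averaged 1 FPKM or more. Of these 85 genes 35 were higher and 50 lower with oxalate, with a median log2 fold change of -0.021. A single gene was at least 2-fold higher, H2-Q1, and none was lower by that much. The mean of H2-Q1, 1.72 FPKM, passed the filter only through the oxalate library. At 1.2-fold, 6 of the 85 were higher and 4 lower, against 4.75% and 5.19% of all genes, and 5198 of all 10267 genes were higher and 5033 lower without regard to size. At 2-fold, the shares of all genes were 0.292% higher and 0.36% lower. Lower genes outnumbered higher ones among the 85, whereas the reverse held among all genes. The count lower at 1.2-fold was near its share, and no count was tested against its share.

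The other heavy chains and class I-like molecules, a mixed list that reaches from ligands of natural killer cells to the iron regulator Hfe, were lower than H2-D1. Of 19 genes found in the table, 8 passed the filter, 6 of them higher and 2 lower with oxalate, with a median log2 fold change of 0.072. H2-Q1 rose, from 0.50 FPKM in PBS cells to 2.94 FPKM in oxalate cells (an estimated 57 and 213 reads), a log2 fold change of 1.39 and an interval of the log2 read ratio from 2.11 to 2.99. Since 22.3% of its 50-base windows occur in other genes, foremost H2-Q2, the value is uncertain. Its PBS level alone lay below the filter of 1 FPKM. H2-Q6 was at 1.01 and 1.66 FPKM, and H2-M3, which presents formylated peptides, at 4.43 and 4.80 FPKM. H2-T23, which encodes the Qa-1 ligand of natural killer receptors, had the highest mean of the list at 12.5 and 11.9 FPKM. The 14 other H2 heavy chain genes in the table summed to 38.7 FPKM in PBS cells and 41.8 FPKM in oxalate cells, 22.42% and 23.02% of all H2 heavy chain FPKM.

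Genes of chaperones, peptide trimming and the channel into the endoplasmic reticulum ranged from 9.67 to 776 FPKM over both libraries. All 10 in the list were lower with oxalate, by a log2 fold change of -0.011 to -0.16. None of the 10 reached 1.2-fold, 5033 of all 10267 genes were lower too, and the list median of -0.064 became -0.049 with the GC trend removed. Calr, the lectin chaperone calreticulin that joins tapasin in the loading complex, was at 776 FPKM in PBS cells and 749 FPKM in oxalate cells. Erap1, the aminopeptidase that trims peptides to class I length, was at 22.7 and 20.2 FPKM with a log2 fold change of -0.16. Sec63 and Sec61b, parts of the channel into the endoplasmic reticulum, had log2 fold changes of -0.097 and -0.094.

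Among proteasome catalytic subunits, activators and the assembly factor Pomp, 4 of 9 were higher and 5 lower, with a median log2 fold change of -0.021. Psme2, a subunit of the interferon-inducible PA28 activator, was at 40.6 FPKM in PBS cells and 36.9 FPKM in oxalate cells, far above Psmb8 and Psmb9. Psme3, the nuclear PA28 gamma, had the highest mean of the list, at 285 and 293 FPKM. Psmb7 and Pomp had log2 fold changes of -0.075 and -0.071. Of the cytosolic peptidases, which shorten or destroy peptides before transport, 2 of 7 had the higher value with oxalate and the median log2 fold change was -0.028. Blmh was at 61.9 and 56.8 FPKM, Tpp2 at 56.3 and 52.9 FPKM, Nln at 36.6 and 39.1 FPKM and Lap3, the highest, at 108 and 106 FPKM.

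The factors known to act at class I promoters all averaged 1 FPKM or more, and 7 of 15 were higher and 8 lower with oxalate, for a median log2 fold change of -0.011. Irf1, an interferon-induced activator that binds elements of the IRF kind, was at 27.9 FPKM in PBS cells and 36.2 FPKM in oxalate cells, a log2 fold change of 0.36 and an interval of the log2 read ratio from 0.28 to 0.47. Irf8, better known from myeloid cells, was at 2.43 and 3.49 FPKM, a log2 fold change of 0.39. Rfx5, which binds the X box, was at 7.77 and 9.22 FPKM, a log2 fold change of 0.22, and Rela, the NF-kB subunit p65, at 85.2 and 95.2 FPKM, a log2 fold change of 0.16. Irf1 and Irf8 are the 2 of 15 genes past 1.2-fold, both higher, as were 4.75% of all genes.

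Of the interferon gamma receptor and its signaling proteins 3 of 10 had the higher value with oxalate and 7 the lower, and the median log2 fold change was -0.038. Ptpn11, the phosphatase SHP2, was at 51.3 FPKM in PBS cells and 35.6 FPKM in oxalate cells, a log2 fold change of -0.51. Socs1, the feedback inhibitor of JAK kinases, was at 6.12 and 4.31 FPKM, a log2 fold change of -0.42. Ifngr1, the chain that binds interferon gamma, was at 13.2 and 9.79 FPKM, a log2 fold change of -0.40. These are the 3 of 10 genes past 1.2-fold, all lower with oxalate, as were 5.19% of all genes, and the list holds activating and inhibiting proteins. Jak1, the kinase bound to this receptor, was at 46.4 and 44.99 FPKM.

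Of 14 genes in a list of interferon-inducible GTPases and related genes, 5 averaged 1 FPKM or more. These 5 were lower with oxalate, with log2 fold changes of -0.0083 to -0.32, as were 5033 of all 10267 genes. At 1.2-fold 1 of the 5 was lower, against 5.19% of all genes. The interval of the log2 read ratio held 0 for Irgm1 (-0.21 to 0.19), Gbp2 (-0.27 to 0.22) and Stat2 (-0.33 to 0.074). With the GC trend removed Irgm1 was at 0.0074. Irgm1, the highest, was at 4.26 and 4.23 FPKM, Gbp2 at 2.55 and 2.51 FPKM and Stat2 at 2.24 and 2.05 FPKM. Isg15, a ubiquitin-like protein, was at 3.50 and 2.61 FPKM, an estimated 150 and 72 reads, with an interval of the log2 read ratio from -0.85 to -0.0045.

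**Figure D5:**
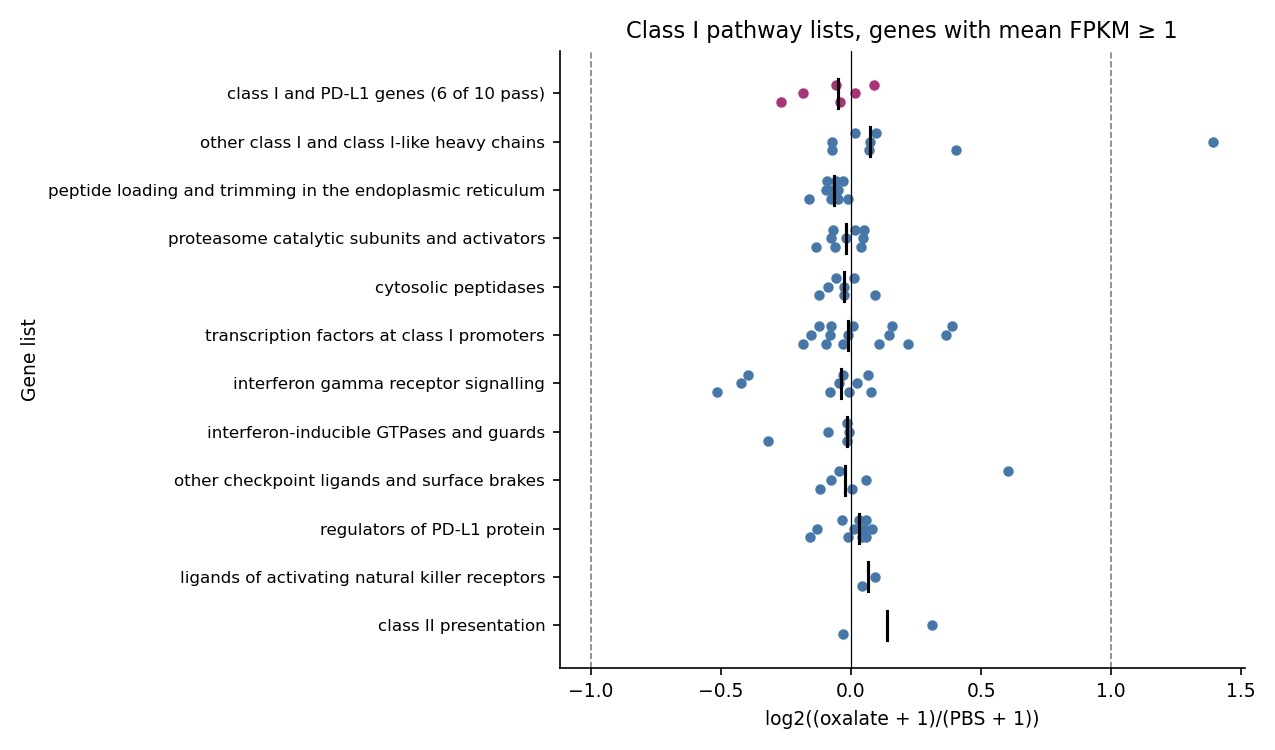
Log2 fold change with oxalate of each gene that averaged 1 FPKM or more, by list; the top row holds 6 of the 10 class I and PD-L1 genes, black ticks are list medians and dashed lines mark 2-fold. H2-Q1, at 1.39, is the point beyond 2-fold, and it passed the filter only through the oxalate library. Lgals9 at 0.60 and Ptpn11 at -0.51 are the next largest in size.

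Other checkpoint ligands and surface brakes were read as a mixed list, in which Cd80, Cd86 and Icosl are not solely restraining. Levels ran from 0 to 92.9 FPKM. Of 16 genes of the list found in the table, 6 passed the filter, 3 of them higher and 3 lower, with a median log2 fold change of -0.021. Cd276, which encodes B7-H3, was at 89.2 FPKM in PBS cells and 92.9 FPKM in oxalate cells, 892 and 664 times the level of Cd274. Lgals9, which encodes galectin-9, a ligand of TIM-3, was at 23.98 FPKM in PBS cells and 36.95 FPKM in oxalate cells, an estimated 1898 and 1878 reads. Its log2 fold change of 0.60 was the largest among the checkpoint ligands, with an interval of the log2 read ratio from 0.53 to 0.72. Cd47, the signal against phagocytosis, was at 34.6 and 32.7 FPKM, and Nectin3 at 1.93 and 1.70 FPKM. Pdcd1lg2, which encodes PD-L2 and was named after its values were seen, was at 0.02 FPKM in PBS cells and listed at 0 in oxalate cells.

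Genes known to control the amount of PD-L1 protein were expressed well above Cd274 itself, at 4.52 to 83.3 FPKM. Of 11 such genes 7 were higher and 4 lower, with a median log2 fold change of 0.032, and none was past 1.2-fold. Fbxw7, a ubiquitin ligase subunit, was at 5.16 and 4.52 FPKM, Cops5, a deubiquitinase subunit of the COP9 signalosome, at 51.7 and 47.2 FPKM and Usp22, another deubiquitinase, at 32.2 and 34.1 FPKM. Stub1, a ubiquitin ligase, was the highest of the list by its mean, at 80.8 and 82.6 FPKM.

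Ligands of the activating receptor NKG2D were read from 5 of 9 listed genes. The other 4, Raet1a, Raet1b, Raet1c and H60a, were not found in the table under these names, and their levels are unknown. The values of the 5 therefore do not give the level of NKG2D ligands as a whole. H60b was at 4.36 and 4.71 FPKM and Ulbp1 at 5.22 and 5.40 FPKM, and 2 of the 5 were listed at 0 in both libraries. Class II presentation, a property of professional antigen-presenting cells, was largely absent from the table: 9 of 12 genes, including the transactivator Ciita and H2-Aa, H2-Ab1 and H2-Eb1, named after their values were seen, were listed at 0 in both libraries. Cd74, the invariant chain, was at 1.38 FPKM in PBS cells and 1.95 FPKM in oxalate cells, an estimated 104 and 94 reads, and H2-DMa was at 2.36 and 2.29 FPKM.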

How the data were processed

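Polyadenylated RNA of 4T1 cells was sequenced in 1 library in PBS cells and 1 with oxalate. The authors deposited FPKM values rounded to 2 decimals. The submitters' processing notes name Bowtie2 2.2.8 and TopHat2 2.1.1, and the quantification tool, genome build, annotation and filters are not given in the sources used here. Symbols, coordinates and lengths came from GENCODE M21 (GRCm38), in which 21848 of 21911 identifiers were found and 63 were not. Promoters came from RefSeq on GRCm38.p6.

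The genes and lists were chosen with earlier results of these data known. Changes are log2((oxalate + 1)/(PBS + 1)). Genes that averaged 1 FPKM or more entered counts and medians, and 2-fold was the threshold. No test was possible with 1 library per condition. FPKM times length of single-transcript genes below 700 bases fell on multiples of 0.0176 (PBS, 88 genes) and 0.0274 (oxalate, 70 genes), which gave the depth. Reads of a gene were estimated with the mean length of its coding transcripts, and summed to 98.6% of the estimated depth in both libraries. This share would be the same for any depth and is therefore no check of the depth estimate. Intervals are exact (Poisson for levels, Clopper-Pearson for ratios) and cover counting error only. FPKM near 1 read are rounded, so these reads are estimates. GC bins were made from genes that averaged 5 FPKM or more.

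Genes were named by rule: the 10 genes, the 6 catalytic proteasome genes, and from each of 11 lists the 3 largest changes, any 2-fold change and the highest mean. Other genes given with values, apart from cell type markers, are marked in the text. Alternatives were other pseudocounts (0.1 and 0.001), a rescaling, a GC correction, other filters and other thresholds (1.5-fold and 1.2-fold). The scripts were tested on simulated data. Calculations ran in Python 3.11.15 with pandas 2.3.3, numpy 2.4.6 and scipy 1.17.1, and plots in matplotlib 3.10.9.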

Additional observations from a re-analysis of the deposited data

How the results depend on the processing

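No paired analysis was possible because PBS and oxalate cells gave a single library each, and for the same reason no replicate could be left out. Of the 6 genes that averaged 1 FPKM or more, none differed 2-fold under either pseudocount, the rescaling or the GC correction. None of them differed 1.5-fold, and 1 did at 1.2-fold. The 2-fold count was 0 as well with a filter of 5 FPKM, and without a filter for all 10 genes. Tap1, Nlrc5, Psmb9 and Cd274 entered only the count without a filter. With a pseudocount of 0.001 they were at 0.56, 0.13, 0.64 and 0.48. Psmb9 was thus past 1.5-fold there, with an interval that held 0. Of all genes 67 differed 2-fold, 204 at 1.5-fold and 1021 at 1.2-fold. Of the wider lists 1 gene differed 2-fold, 0 among genes averaging 5 FPKM or more, 2 at 1.5-fold and 10 at 1.2-fold. The lower and higher numbers follow from the filter and thresholds themselves. The inducible proteasome share of 6.90% (PBS) and 6.74% (oxalate) became 2.46% and 2.64% as the geometric mean of the 3 ratios of an inducible gene to its constitutive partner, which gives Psmb9 the same weight as Psmb10. Of 40 alternative values of the 10 genes 1 moved by more than its counting interval, B2m to -0.20 with the GC trend removed, and 1 changed sign, Tapbp to -0.0085 under the same setting. The median log2 fold change was 0.020 with all 10 genes. Under the other settings, read from those that averaged at least 1 or 5 FPKM, the median ran from -0.075 to -0.020. The mean of those that averaged at least 1 FPKM was -0.074. Of 160 values of the other named genes 4 moved. Of these, 2 were of H2-Q1, at 2.34 and 2.55 with pseudocounts of 0.1 and 0.001. The other 2 came with the GC trend removed, which takes away the median of a gene's GC bin. Calr went from -0.051 to -0.069 and Tpp2 from -0.087 to -0.014. Depth limits Psmb9, Cd274, Nlrc5 and Tap1, which rest on 15 to 62 estimated reads per library.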

Other observations

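The heavy chain genes of the Qa region lie in one cluster on chromosome 17 and share sequence. H2-Q1 was at 0.50 FPKM in PBS cells and 2.94 FPKM in oxalate cells, and H2-Q2, the gene with which it shares most 50-base windows, at 0.57 and 0.32 FPKM (an estimated 39 and 14 reads). H2-Q4 was at 9.17 and 9.68 FPKM, H2-Q6 at 1.01 and 1.66 FPKM and H2-Q7 at 0.37 and 0.34 FPKM. The intervals of the log2 read ratio held 0 for H2-Q2 (-1.83 to 0.074), H2-Q4 (-0.069 to 0.23) and H2-Q7 (-1.09 to 0.78), so a difference was not detectable for these genes, and lay above 0 for H2-Q1 and H2-Q6. H2-Q2, H2-Q4 and H2-Q7 were named after their values were seen. Between 22.3% and 39.2% of the 50-base windows of H2-Q1, H2-Q4 and H2-Q6 occur in other genes, against 6.87% for H2-K1. How reads were divided among these genes was not tested, and none of the differences has a replicate check.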
